A study of Homo sapiens with 4 samples.

Results

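The comparison described here is that of MDA-MB-231 cells transfected to knock down LINC00882, a long non-coding RNA, (si_LINC00882) with cells of the same line that received a control silencer (si_NC). MDA-MB-231 is a human triple-negative breast cancer line, and the cells of all groups grew in L15 medium with fetal bovine serum. These are 2 of the 4 libraries of the series, and each group is 1 library. Both columns of gene levels were joined on the gene ID, which gave 11695 genes, and the 10478 genes with at least 1 FPKM (fragments scaled by transcript length and by library size) in either library were compared. The labels name the agent both as an siRNA and as a Smart Silencer, and give neither its sequence nor the time after transfection. LINC00882 itself was not analysed here, and how far it was lowered is unknown. The remaining libraries are RNA from an antibody pulldown of PABPC1, a protein that binds poly(A) tails, and its input RNA, and input is used below only to set levels side by side.

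Long non-coding RNAs are transcripts that do not encode protein and can act on the transcription, processing or stability of other RNAs, often through the proteins they bind. Silencing reagents of the siRNA type load into Argonaute proteins and direct the cleavage of matching RNAs, and can also lower RNAs with a partial match. MDA-MB-231 cells are mesenchymal in shape, carry high levels of vimentin and the receptor kinase AXL, and are often used to study invasion.

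Every difference below is a log2 ratio of si_LINC00882 over si_NC after adding a pseudocount of 1 to both FPKM values, and a gene is counted as higher or lower where this ratio is at least 1 in size (2-fold). With 1 library per group there was no estimate of the spread between cultures, no test was possible, and the values describe these libraries only. The pseudocount understates the change of genes with low levels. In whole-culture RNA, fewer cells with a transcript and less of it per cell cannot be told apart.

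The silenced library held 90 genes at 2-fold higher (0.859%) and 121 at 2-fold lower (1.15%), together 2.01% of the genes compared. Most genes stood close to equal levels. The median log2 ratio was -0.01, the middle 50% of genes lay between -0.16 and 0.15, and 7435 genes (71%) were within 1.2-fold. Only 9 genes were past 4-fold higher and 16 past 4-fold lower. After the pseudocount, which narrows the ratios of genes with low levels, the spread differed little between levels. It therefore does not show that genes with low levels vary as little as abundant ones. The central 95% of ratios ran from -0.81 to 0.67 among the 1472 genes with a mean under 2 FPKM, and from -0.71 to 0.54 among the 254 genes with a mean of 100 FPKM or more. The share past 2-fold was 2.65% in the lowest of these classes and 1.18% in the highest. At the edge of the size rule, LSR (5.25 FPKM in si_LINC00882, 2.12 in si_NC, 1.002) and VKORC1L1 (11.7 and 24.4, -1.0003) were counted, while FOXP4 (19.9 and 9.51, 0.99) and NCLN (11.05 and 23.1, -0.999) were not.

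**Figure D1:**
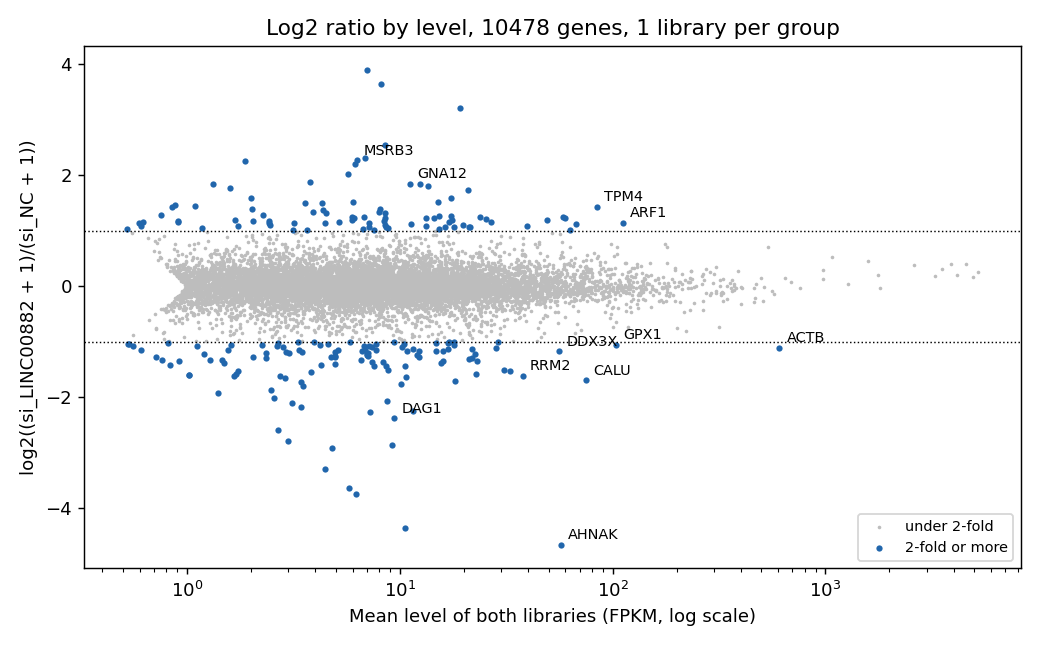
Log2 ratio of si_LINC00882 over si_NC (vertical axis) against the mean FPKM of both libraries (horizontal log axis), 1 point per gene, with dotted lines at 2-fold. Most of the 10478 genes lie near 0 at every level, and the abundant ACTB and CALU lie with AHNAK below the lower line.

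The 2 libraries were close in most summary values. The summed FPKM was 216346 in si_LINC00882 and 209725 in si_NC, 53 and 50 genes were listed at 0, and mitochondrially encoded mRNAs took 19.3% and 16.3% of the sum. All 13 of these mRNAs were higher in si_LINC00882, with log2 ratios from 0.16 to 0.52. MT-ATP8 had the largest gain of FPKM among the named genes (5192 in si_LINC00882 and 3942 in si_NC). The labelled cell type was checked on markers. Vimentin (VIM) stood at 267 and 260.4 FPKM and AXL at 241 and 244. The 7 measured markers of the line summed to 978 and 982 FPKM, and the 8 measured luminal and epithelial breast markers to 164 and 169. Of 3 fibroblast markers measured none reached 1 FPKM, and the lone immune marker measured, CD68, a lysosomal protein found in many cells, gave 13.4 and 8.85 FPKM. None of these markers was past 2-fold. Other markers, the estrogen receptor gene ESR1 and the adhesion gene CDH1 among them, were not analysed here.

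AHNAK had the lowest ratio of all genes compared. Its product is a very large scaffold protein beneath the plasma membrane, which binds annexin and S100 proteins and actin. Its level was 3.43 FPKM in si_LINC00882 and 111 in si_NC, a log2 ratio of -4.66. The related AHNAK2 stood at 1.37 and 0.973 FPKM (0.27). Of the 38 compared genes for giant scaffolds and cytoskeletal linkers, AHNAK alone was past 2-fold, and the list had a median of -0.07. The highest ratio of that list was that of vinculin, VCL (37.5 and 24.2 FPKM, 0.61), whose gene overlaps AP3M1. Input held AHNAK at 6.38 FPKM, near the silenced library.

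Actin filament genes had ratios on both sides, and they included the most abundant mRNA past 2-fold. ACTB, cytoplasmic beta-actin, stood at 384 FPKM in si_LINC00882 and 829.6 in si_NC (-1.11), the largest loss of FPKM of any gene compared. ACTG1, the gamma-actin gene of nearly identical coding sequence, stood at 342 and 271 (0.34), so how fragments were shared between them is uncertain. The tropomyosins, which wind along actin filaments and set which proteins bind them, split. TPM3 stood at 15.7 and 46.3 FPKM (-1.51) and TPM4 at 124 and 45.3 (1.43), while TPM1 (10.8 and 11.1, -0.03) and TPM2 (6.37 and 6.46, -0.02) stood level. PFN2, a profilin that delivers actin monomers, was lower (2.28 and 5.61, -1.01), and the far more abundant PFN1 was not (376 and 385, -0.03). DSTN (destrin), which severs filaments and was not on the list used, was higher (84.3 and 41.2, 1.02), beside CFL1 at 90.4 and 84.1 (0.104) and CFL2 at 8.24 and 8.298 (-0.01). TMSB4X, which sequesters actin monomers, lost the second most FPKM (237 and 394, -0.73) without reaching 2-fold. Of the 55 genes of the actin and contractility list, 1 was at 2-fold higher and 3 lower, with a median of -0.02, against 2.01% past 2-fold over all genes.

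Septins, GTP-binding proteins that form filaments beside actin and at the division furrow, were lower for SEPT11 (10.9 FPKM in si_LINC00882 and 34.8 in si_NC, -1.58) and SEPT2 (16.5 and 49.6, -1.53). SEPT7, a core subunit of septin complexes, stood at 18.3 and 28.02 (-0.59). SEPT9 (9.82 and 6.94, 0.45), SEPT10 (42.7 and 48.6, -0.18) and SEPT8 (8.04 and 7.64, 0.07) lay closer to equal levels. Input held SEPT11 at 29.7 and SEPT2 at 50.9 FPKM, near the control silencer library. The septins were grouped after their values were seen.

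Among tubulins, the subunits of microtubules, 3 genes were past 2-fold and the most abundant ones were not. TUBB2B stood at 10.7 FPKM in si_LINC00882 and 1.54 in si_NC (2.21), TUBB3, best known from neurons, at 9.77 and 1.64 (2.03), and TUBA1A at 10.2 and 23.5 (-1.13). The dominant TUBB (677 and 611, 0.15), TUBB4B (376 and 349, 0.11) and TUBA1B (243 and 219.8, 0.15) stood close to equal. Less abundant members also stood close to equal, among them TUBB2A (35.6 and 33.01, 0.11), TUBA4A (23.7 and 22.7, 0.06) and TUBB6 (22.5 and 19.9, 0.17). TUBA1C was intermediate (129.9 and 79.7, 0.698). In the 19 compared tubulin and gamma-tubulin complex genes, 2 were at 2-fold higher and 1 lower, with a median of 0.15. The share past 2-fold was 15.8%, against 2.01% over all genes. It rests on 3 genes of a list chosen with earlier results of these libraries known. Tubulin paralogs share much sequence, so fragments may be divided among them in ways these values do not show. None of the 34 microtubule-associated and motor protein genes was past 2-fold.

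**Figure D2:**
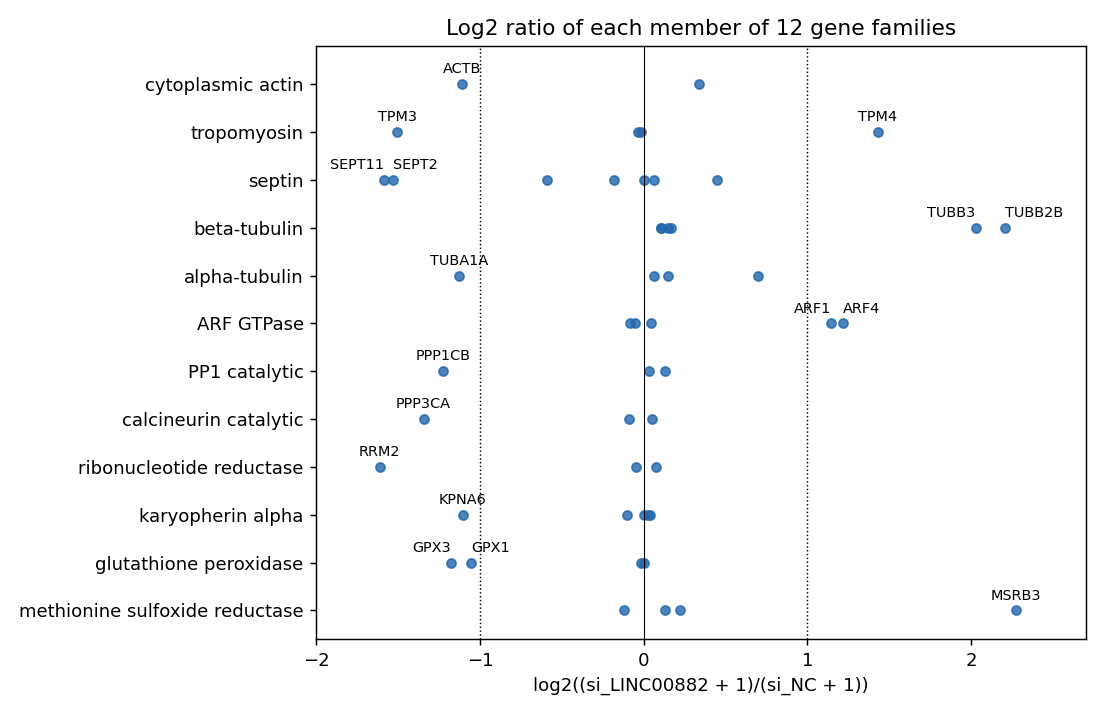
Log2 ratio of si_LINC00882 over si_NC (horizontal axis) for each member of 12 gene families with at least 1 FPKM, 1 point per gene, with names at members past 2-fold. In each family shown at least 1 member lies within the dotted 2-fold lines while the named ones lie beyond them.

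The same form, a single member past 2-fold beside level relatives, recurred in other families. These families were chosen after their values were seen, so they illustrate and do not measure how often this occurs. RRM2, the small subunit of ribonucleotide reductase that makes deoxynucleotides for DNA synthesis, stood at 18.1 FPKM in si_LINC00882 and 57.4 in si_NC (-1.61). Its large partner RRM1 stood at 49.98 and 51.7 (-0.05) and the alternative small subunit RRM2B at 5.54 and 5.2002 (0.08). PPP1CB, a catalytic subunit of protein phosphatase 1 that acts on myosin, stood at 13.1 and 31.98 (-1.22), beside PPP1CA at 56.8 and 51.8 (0.13) and PPP1CC at 33.3 and 32.6 (0.03). PPP3CA, a catalytic subunit of the calcium-dependent phosphatase calcineurin, stood at 8.61 and 23.4 (-1.35), beside PPP3CB at 19.9 and 21.3 (-0.09). The nuclear import receptor KPNA6 stood at 6.14 and 14.4 (-1.11), while KPNA1 (0.03), KPNA3 (0.04) and KPNA2 (108 and 116, -0.104) stood close to level. RPL26L1, a close copy of a ribosomal protein gene, stood at 68.9 and 29.5 (1.197), while RPL26 itself stood at 141 and 147 (-0.06).

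Of the genes for attachment to the matrix and for the matrix itself, DAG1 alone was past 2-fold. DAG1, which encodes dystroglycan, the laminin receptor, stood at 2.36 FPKM in si_LINC00882 and 16.5 in si_NC (-2.38). ITGB1, the beta-1 integrin subunit shared by many integrins, stood at 149.7 and 252 FPKM (-0.75), a large loss of FPKM short of 2-fold. SDC4, a heparan sulfate receptor, stood at 101 and 69.1 (0.55). DAG1 was the only one of 34 matrix receptor genes past 2-fold (median 0.05). None of 37 extracellular matrix genes and none of 27 genes for invasion proteases and inhibitors was past 2-fold. Within these lists COL6A3 (3.76 and 1.81, 0.76) and CTSB, a lysosomal protease, (16.4 and 8.54, 0.87) had the highest ratios. CYR61, a secreted matrix protein, stood at 664 and 409 FPKM (0.696), and the basement membrane collagen COL4A1 at 41.9 and 29.8 (0.48).

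Secretory pathway genes held both high and low ratios. The GTPases ARF1 and ARF4 recruit coats to Golgi membranes. ARF1 stood at 154 FPKM in si_LINC00882 and 69.1 in si_NC (1.15), and ARF4, which overlaps PDE12, at 84.4 and 35.7 (1.22). ARF3 (-0.08), ARF5 (-0.05) and ARF6 (0.05) stood level. Abundant genes for proteins of the endoplasmic reticulum had ratios on both sides. GANAB, the glucosidase that trims new glycoproteins, stood at 91.98 and 41.9 (1.11), and DAD1, a subunit of oligosaccharyltransferase, at 69.3 and 34.98 (0.97). EMC6, a membrane insertase subunit, stood at 82.5 and 33.99 (1.25). Its gene overlaps P2RX5-TAX1BP3, which was itself past 2-fold (1.44). TMED2, a cargo receptor, stood at 74.7 and 38.6 (0.94). On the low side, TRAM2, a translocon-associated protein, stood at 29.2 and 58.8 (-0.99) and TMBIM6, a membrane protein that restrains cell death, at 47.0 and 85.8 (-0.86). The calcium-binding protein CALU stood at 34.9 and 115 (-1.698), while its relatives RCN1 (59.9 and 72.2, -0.27), RCN2 (-0.32) and SDF4 (0.02) stayed short of 2-fold. The membrane fusion protein BET1 (2.66 and 6.57, -1.05) and RAB6A, a GTPase of the Golgi (9.397 and 22.4, -1.17), were lower, as was the cargo receptor subunit MCFD2 by a smaller ratio (31.8 and 60.7, -0.91). GANAB, EMC6, DAD1, TRAM2 and TMBIM6 were on none of the lists. Of the 82 genes of endoplasmic reticulum to Golgi transport 2 (ARF1 and ARF4) were at 2-fold higher and 2 (CALU and BET1) lower (median 0.03). Of 48 RAB genes 2 were lower (median -0.03). The shares past 2-fold were 4.88% and 4.17%, against 2.01% over all genes.

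**Figure D3:**
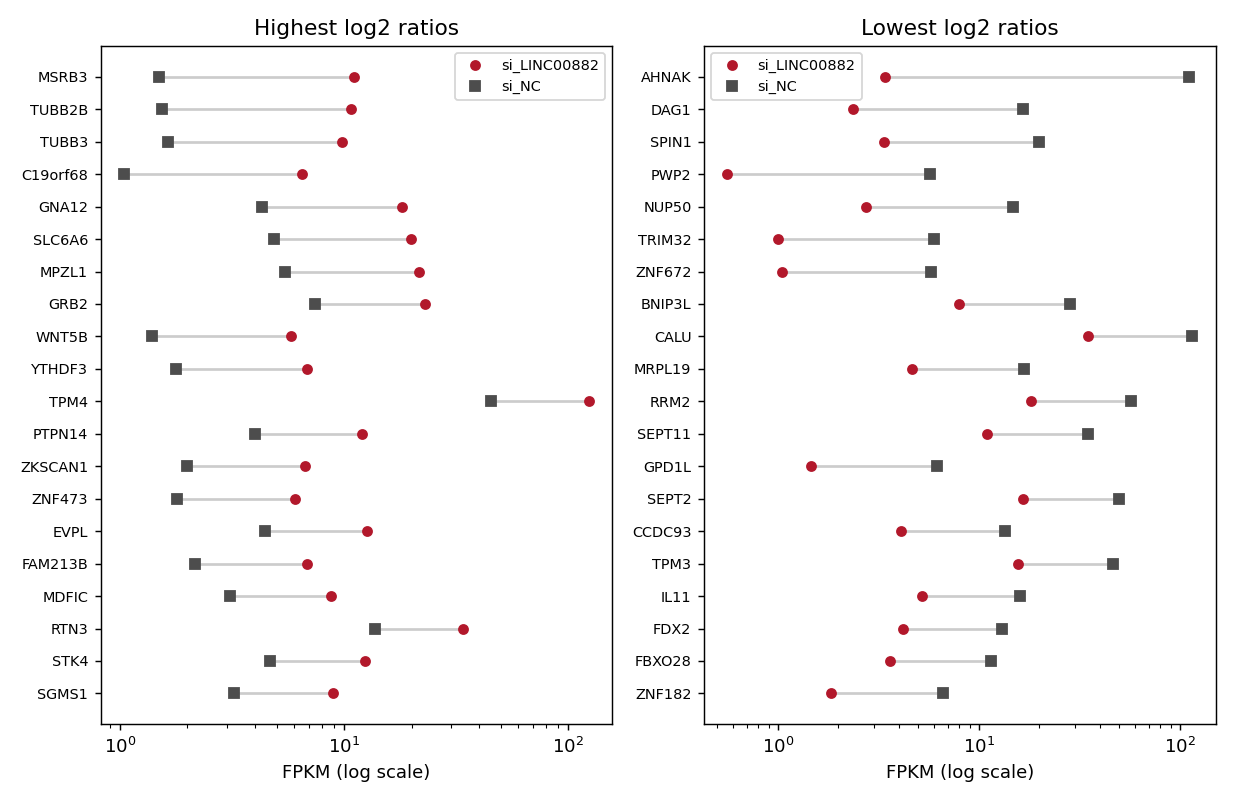
FPKM (log axis) in si_LINC00882 (circles) and si_NC (squares) for the 20 highest and 20 lowest log2 ratios among genes with at least 5 FPKM that overlap no other listed gene. The lines join both libraries of a gene, and AHNAK has the widest gap of all, 3.43 against 111 FPKM.

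At most 3 genes of any signalling list were past 2-fold. GRB2, the adaptor that couples receptor kinases to RAS, stood at 22.9 FPKM in si_LINC00882 and 7.396 in si_NC (1.51). In the same list DUSP3, a phosphatase of MAP kinases, stood at 8.15 and 23.1 (-1.396) and MAP2K3, the kinase that activates p38, at 11.3 and 24.7 (-1.07). These were all of the 56 RAS and MAP kinase genes past 2-fold (median -0.06), a share of 5.36% against 2.01% over all genes. FRS2, an adaptor of growth factor receptors outside the list, had a ratio of -1.62 at a low level (0.832 and 4.63) and was named after its values were seen. GNA12, a G protein alpha subunit, stood at 18.1 and 4.32 (1.84), and its close relative GNA13 at 17.9 and 20.2 (-0.16). PRKAR1A, a regulatory subunit of protein kinase A, which overlaps WIPI1, stood at 12.3 and 31.5 (-1.29). WNT5B, a secreted ligand, stood at 5.81 and 1.397 (1.51) and was alone past 2-fold among 31 WNT pathway genes. Of 32 genes of the YAP and TEAD pathway, which controls growth in response to cell shape, 2 were at 2-fold higher (6.25%). They were PTPN14, which binds YAP (12.1 and 4.02, 1.38), and the kinase STK4 (12.3 and 4.69, 1.23). PDPK1, the kinase that activates AKT, was lower at a low level (1.02 and 3.69, -1.22) and was the only one of 45 PI3K, AKT and mTOR genes past 2-fold. None of 31 TGF-beta, 23 Notch, 37 AP-1 and immediate-early, or 17 ETS factor genes reached 2-fold. The ETS factor gene ELK3 had a ratio of -0.32.

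In the lists for cytokines and for antigen presentation no gene was at 2-fold higher and 3 were at 2-fold lower. The shares past 2-fold were 3.92% and 3.33%, from 2 genes and 1 gene, against 2.01% over all genes. IL11 stood at 5.23 FPKM in si_LINC00882 and 15.97 in si_NC (-1.45), and the receptor gene IL4R at 1.34 and 3.97 (-1.09). The list of 51 cytokine and receptor genes had a median of -0.06, with IL1R1, a receptor gene, highest (1.97 and 0.522, 0.97), IL6 at 16.02 and 24.3 (-0.57) and CSF2 at 37.8 and 56.8 (-0.58). STAT3, the factor activated by IL6-type cytokines, stood at 15.5 and 9.95 (0.60). B2M, the light chain of class I molecules of antigen presentation, stood at 10.9 and 23.2 (-1.02), the only one of 30 antigen presentation genes past 2-fold, and the stress ligand MICB at 14.6 and 27.5 (-0.86). None of 45 RNA sensing and interferon genes was past 2-fold.

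Nuclear and RNA-related genes were represented on both sides. SPIN1, which reads methylated histone H3, stood at 3.38 FPKM in si_LINC00882 and 19.8 in si_NC (-2.25), and SETD7, a lysine methyltransferase, at 11.99 and 5.08 (1.09), out of 117 chromatin genes (median 0.01). DDX3X, an RNA helicase of translation, stood at 34.2 and 78.2 (-1.17), and EIF5, which acts in start codon choice, at 12.5 and 33.7 (-1.36), the only one of 49 initiation genes past 2-fold. Ribosome assembly factors included PWP2 (0.5604 and 5.71, -2.104) on the low side and NOLC1 (54.003 and 25.1, 1.08), NIP7 (19.1 and 7.61, 1.22) and SNU13, which overlaps C22orf46 (32.5 and 9.15, 1.73), on the high side. These are 4 of 95 such genes (4.21%, against 2.01% over all genes), whose median was -0.10. NUP50 (2.75 and 14.7, -2.07) and KPNA6 were lower, and the importin IPO4, which overlaps REC8, higher (12.1 and 4.79, 1.18). Of the 60 nuclear transport genes 5% were past 2-fold. YTHDF3, a reader of m6A-modified mRNA, stood at 6.87 and 1.78 (1.498), while YTHDF1 (34.6 and 28.2, 0.29) and YTHDF2 (6.15 and 5.04, 0.24) differed less. None of 96 spliceosome and SR protein genes and none of 65 DNA repair genes was past 2-fold.

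In the lists for p53, for cell death and for cyclins, CDKs and their inhibitors, 4 genes were at 2-fold lower and none was at 2-fold higher. The shares past 2-fold were 3.33%, 4.44% and 1.72%, from 1 or 2 genes per list, against 2.01% over all genes. FOXM1, a transcription factor of the cell cycle on none of the lists, was higher (25.1 FPKM in si_LINC00882 and 9.91 in si_NC, 1.26), and its gene overlaps ITFG2 and RHNO1. MDM4, which restrains p53, stood at 0.404 FPKM in si_LINC00882 and 4.71 in si_NC (-2.02), the only one of 30 genes of the p53 list past 2-fold. XIAP, an inhibitor of caspases, stood at 0.496 and 4.49 (-1.87), and with BNIP3L it made up the 2 lower genes among 45 of the cell death list (median 0.04). E2F5, a repressor of the cell cycle whose gene overlaps C8orf59, stood at 1.41 and 3.93 (-1.03), the only one of 58 cyclin, CDK and inhibitor genes past 2-fold (median 0.01). MDM4, XIAP and E2F5 did not reach 5 FPKM in either library, and they and FOXM1 were named after their values were seen.

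The machinery that silencing reagents of the siRNA type use was itself measured, though the labels also call the agent a Smart Silencer. Whether the agent acted through this machinery was not tested. Of 32 small RNA pathway genes none was at 2-fold higher and 1 lower, 3.12% against 2.01% over all genes. This list had the lowest median of the 48, -0.12. AGO1, the member past 2-fold, stood at 0.938 FPKM in si_LINC00882 and 3.76 in si_NC (-1.298). AGO2, the Argonaute that cleaves targets, stood at 9.57 and 13.2 (-0.43), AGO3 at 1.16 and 2.25 (-0.59) and AGO4 at 4.27 and 4.48 (-0.06). AGO1, AGO3 and AGO4 lie below the level set for named genes and were named after their values were seen.

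Metabolic and stress genes showed the same scatter. MSRB3, which repairs oxidised methionine, had the highest ratio among the genes named by rule that overlap no other (11.1 FPKM in si_LINC00882 and 1.49 in si_NC, 2.27), whereas MSRB1 (4.29 and 4.75, -0.12), MSRB2 (8.79 and 7.403, 0.22) and MSRA (1.43 and 1.22, 0.13) stood near level. The peroxide-removing enzymes GPX1 (67.3 and 141, -1.05) and GPX3 (7.15 and 17.4, -1.18) were lower and GPX4 was level (71.9 and 72.9, -0.02). PRDX1, a peroxiredoxin whose gene overlaps MMACHC, stood at 160 and 282 (-0.81). Of the 54 genes of the antioxidant and iron list 1 was at 2-fold higher and 2 lower, with a median of -0.003. That is a share of 5.56%, against 2.01% over all genes. SLC6A6, which imports taurine (19.99 and 4.87, 1.84), and SLC19A2, which imports thiamine (4.21 and 12.5, -1.37), were the only 2 of 162 solute carrier genes past 2-fold. BNIP3L, a mitophagy receptor, stood at 7.99 and 28.4 (-1.71). The ubiquitin ligase genes TRIM32 (1.0003 and 5.99, -1.805), FBXO28 (3.601 and 11.5, -1.44) and FBXO34, which overlaps ATG14, (1.81 and 12.6, -2.28) were lower among 81 F-box and TRIM genes. None of that list was at 2-fold higher, and its share past 2-fold was 3.7%, against 2.01% over all genes. PSME3, an activator of the proteasome, stood at 35.8 and 14.9 (1.21), alone among 43 proteasome genes. All 96 ubiquitin enzyme and 75 chaperone genes stayed within 2-fold.

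Other genes among the 20 highest or lowest ratios came from unrelated functions. Higher genes included EVPL, a cornified envelope protein of epithelia (12.7 FPKM in si_LINC00882 and 4.46 in si_NC, 1.32), RTN3, which shapes the endoplasmic reticulum (33.9 and 13.7, 1.25), and SGMS1, which makes sphingomyelin (8.92 and 3.23, 1.23). Lower genes included MRPL19, a mitochondrial ribosomal protein (4.67 and 16.8, -1.65), and FDX2, a ferredoxin of iron-sulfur cluster assembly (4.19 and 13.1, -1.44). Zinc finger genes lay on both sides, with ZKSCAN1 (6.71 and 1.99, 1.36) and ZNF473 (6.04 and 1.79, 1.33) higher, and ZNF672 (1.05 and 5.805, -1.73) and ZNF182 (1.84 and 6.66, -1.43) lower. Of single lipid, channel and receptor genes, INSIG2, which retains the sterol sensor complex (5.89 and 12.9, -1.01), ATP2B4, a calcium pump (4.42 and 11.1, -1.16), and ROR1, a receptor of the WNT5 ligands (3.54 and 8.12, -1.01), were each alone past 2-fold in their lists of 52, 53 and 19 genes.

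Over all 48 lists, chosen with earlier results of these libraries known, 2389 different genes were compared and 59 (2.47%) were past 2-fold, against 2.01% of all genes. No list had more than 4 members past 2-fold, and 16 had none. The medians lay within 0.1 of 0 for 43 lists and ran from -0.12 to 0.29, the highest being that of the 13 mitochondrially encoded mRNAs. The median of all genes was -0.01.

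Some of the largest ratios belonged to genes whose spans overlap another listed gene. Of 1932 compared genes of this kind 49 were past 2-fold (2.54%), against 162 of 8546 genes with no such overlap (1.9%). The 49 genes fell in 41 clusters of overlapping genes, and summing the FPKM of each cluster left 6 clusters past 2-fold. In 7 clusters, genes past 2-fold lay in opposite directions. ZC3H11A, an mRNA export factor, stood at 15.3 FPKM in si_LINC00882 and 1.797 in si_NC, and ZBED6, which lies within it, at 1.46 and 16.9, and their sums were 16.8 and 18.7 (-0.15). FAM47E-STBD1 was listed at 0 and at 5.95, STBD1 stood at 12.1 and 1.64, and their sums were 12.1 and 7.59 (0.61). PTGES3L-AARSD1 was listed at 0 and at 12.5, AARSD1 stood at 9.38 and 2.64, and their sums were 9.38 and 15.1 (-0.63). Of 18 clusters that include a readthrough gene, a transcript running across neighbouring genes, none had a sum past 2-fold. The clusters with sums past 2-fold were PRSS23 with FZD4 (-1.55), FBXO34 with ATG14 (-1.20), PRKAR1A with WIPI1 (-1.14), PPP1R18 with NRM (1.04), IPO4 with REC8 (1.16) and SNU13 with C22orf46 (1.59). Levels per kilobase of transcripts of unequal length do not add up exactly, so the sums are only a guide. The clusters were also picked for a member past 2-fold, so adding neighbours that differ less draws the sums toward equal levels. RPS10-NUDT3 (0 and 1.53 FPKM), for example, lay in a cluster with sums of 434 and 525. The sums therefore cannot show whether differences cancel within a cluster.

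**Figure D4:**
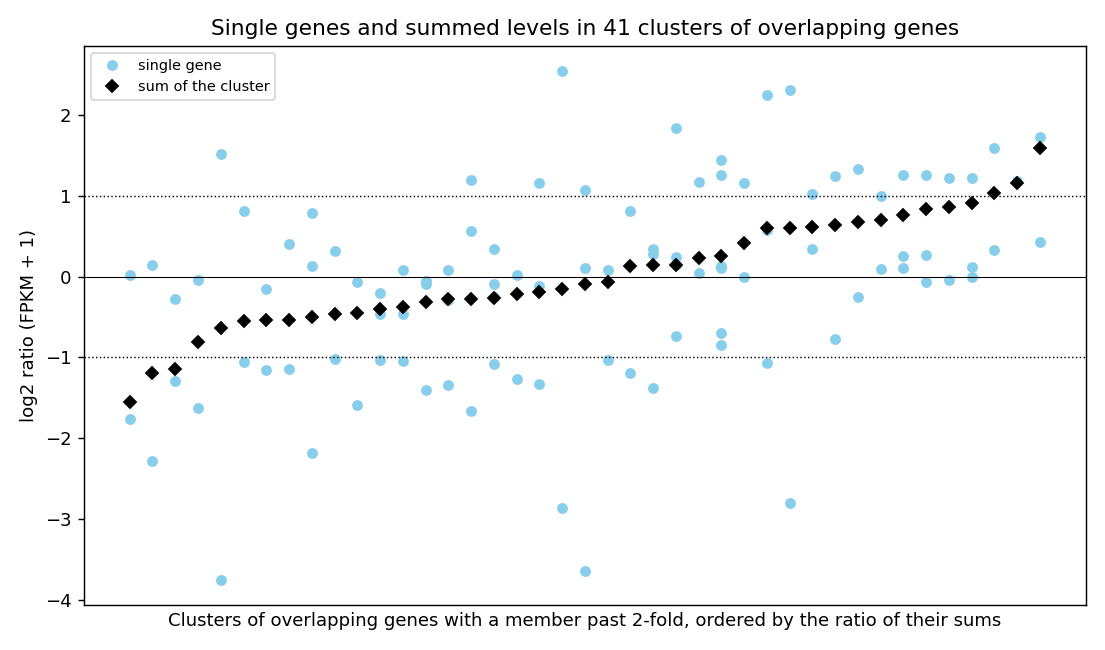
Log2 ratio of si_LINC00882 over si_NC (vertical axis) for single genes (circles) and for the summed FPKM of their cluster (diamonds) in the 41 clusters of overlapping genes with a member past 2-fold. The diamonds of all but 6 clusters lie between the dotted 2-fold lines, while single genes reach far beyond them. Clusters were picked for such a gene, so sums nearer to equal levels follow in part from that choice.

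The genes past 2-fold were compared in properties the size rule did not use. By names matched to RefSeq, their share ran from 0.475% on chromosome 10 to 4.08% on chromosome 21 (4 of 98 genes). On chromosome 3, which carries LINC00882, 6 of 597 genes were higher and 11 lower (2.85%). Chromosomes 17 (2.97%), 20 (3.74%) and 21 had higher shares than chromosome 3. Over all genes compared, matched or not, the share was 2.01%. The 7 measured neighbours of LINC00882 had a median of 0.01 and none was past 2-fold, ALCAM having the largest ratio (42.9 and 68.5 FPKM, -0.66). The median GC content of the promoter window was 67% for the genes higher and 67.7% for those lower, and 65.7% for all 8643 genes with a window. The window is 250 bases before to 50 after the start of the gene in RefSeq. The median gene span was 28038 bases for the higher, 40753 for the lower and 30629 for all.

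The windows were searched on both strands for short motifs, as a description of letters and not of bound factors, with no test. The E-box CACGTG was in 13 of 62 windows of higher genes (21%), 7 of 86 of lower genes (8.14%) and 10.7% of all. The TEAD motif GGAATG was in 16.1%, 19.8% and 10.7%, and the AP-1 motif TGACTCA in 8.06%, 4.65% and 2.65%, in the same order. The other shares were 40.3%, 40.7% and 37.4% for CCAAT, 74.2%, 67.4% and 72.5% for GGGCGG, 0%, 8.14% and 4.95% for TATAAA, 6.45%, 8.14% and 10.2% for the ETS motif CCGGAAGT, and 0%, 2.33% and 3.55% for the cAMP response element TGACGTCA. The CArG box, the motif of serum response factor, was in the windows of TPM4 and MPZL1 among the higher genes, in none of the lower genes and in 1.03% of all. The marked motifs do not overlap in the windows printed here.
Shown are the windows of the gene with the lowest ratio (AHNAK), of RRM2 with its repeated CCAAT motif, and of both genes with a CArG box (TPM4 and MPZL1, a cell surface glycoprotein gene at 21.7 FPKM in si_LINC00882 and 5.46 in si_NC, 1.81). They are RefSeq sequences of GRCh38.p14, a build other than that of the deposited values, given 5′ to 3′ along the gene with motifs in capitals (the TEAD motif in AHNAK, CCAAT in RRM2 and MPZL1, and the CArG box in TPM4 and MPZL1). Matches to GGGCGG are left unmarked.
AHNAK (chr11:62545777-62546076, minus strand): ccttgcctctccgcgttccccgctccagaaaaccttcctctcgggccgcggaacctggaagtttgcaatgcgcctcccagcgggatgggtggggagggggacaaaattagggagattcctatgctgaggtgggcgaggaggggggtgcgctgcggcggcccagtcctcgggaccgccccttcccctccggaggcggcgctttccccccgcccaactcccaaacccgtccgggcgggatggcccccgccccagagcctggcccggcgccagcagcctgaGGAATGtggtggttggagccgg
RRM2 (chr2:10122489-10122788, plus strand): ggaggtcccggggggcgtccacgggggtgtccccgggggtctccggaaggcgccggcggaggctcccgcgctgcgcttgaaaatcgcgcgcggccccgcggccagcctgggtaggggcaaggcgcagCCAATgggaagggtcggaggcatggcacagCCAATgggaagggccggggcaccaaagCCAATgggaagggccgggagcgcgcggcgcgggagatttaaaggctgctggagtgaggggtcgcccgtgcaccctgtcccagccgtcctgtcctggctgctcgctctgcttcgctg
TPM4 (chr19:16067288-16067587, plus strand): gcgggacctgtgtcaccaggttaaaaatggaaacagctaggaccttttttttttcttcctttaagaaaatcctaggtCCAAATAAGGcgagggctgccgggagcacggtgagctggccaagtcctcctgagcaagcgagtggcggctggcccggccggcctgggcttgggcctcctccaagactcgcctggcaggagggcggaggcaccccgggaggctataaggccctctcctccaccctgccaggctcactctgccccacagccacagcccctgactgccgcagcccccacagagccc
MPZL1 (chr1:167721732-167722031, plus strand): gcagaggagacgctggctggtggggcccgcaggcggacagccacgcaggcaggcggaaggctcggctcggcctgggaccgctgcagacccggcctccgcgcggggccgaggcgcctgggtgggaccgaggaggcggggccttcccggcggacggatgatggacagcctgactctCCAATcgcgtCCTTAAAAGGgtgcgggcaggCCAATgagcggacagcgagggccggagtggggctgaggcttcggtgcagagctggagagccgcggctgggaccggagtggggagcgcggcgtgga
In AHNAK the TEAD motif begins at base 29 after the start, in TPM4 the CArG box begins 173 bases before the start, and in MPZL1 it begins 66 bases before it between a pair of CCAAT motifs. In RRM2 the CCAAT motifs begin 123, 93 and 66 bases before the start.

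Input is a library of the pulldown experiment, for which the labels name no silencer, so it differs from si_NC in more than the silencer. Input and si_NC differed by 2-fold at 25.1% of genes, far more than the 2.01% between the transfected libraries. Of the 114 genes lower in si_LINC00882 and listed in all libraries, 53 (46.5%) stood nearer to si_LINC00882 than to si_NC in input, and of the 84 higher genes 41 (48.8%) did. Compared with input, 46 of the lower genes were also at 2-fold lower in si_LINC00882 and 16 were at 2-fold higher. Of the higher genes 34 were also at 2-fold higher over input and 1 was at 2-fold lower, ARF4, at 181 FPKM in input. Over all 10504 genes compared with input, 629 were at 2-fold lower in si_LINC00882 and 2005 at 2-fold higher. The si_LINC00882 values that picked the lower and higher genes also enter their ratios over input. A shared direction is therefore partly built in, and no conclusion is drawn from these counts. GRB2 (1.34 FPKM), ARF1 (23.4) and GANAB (26.1) were low in input, so they were high in si_LINC00882 against both. DAG1 (7.96) and ACTB (1252) were higher in input than in si_LINC00882, as in si_NC. DDX3X (2.46) and RRM2 (4.701) were lower in input than in either transfected library.

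**Figure D5:**
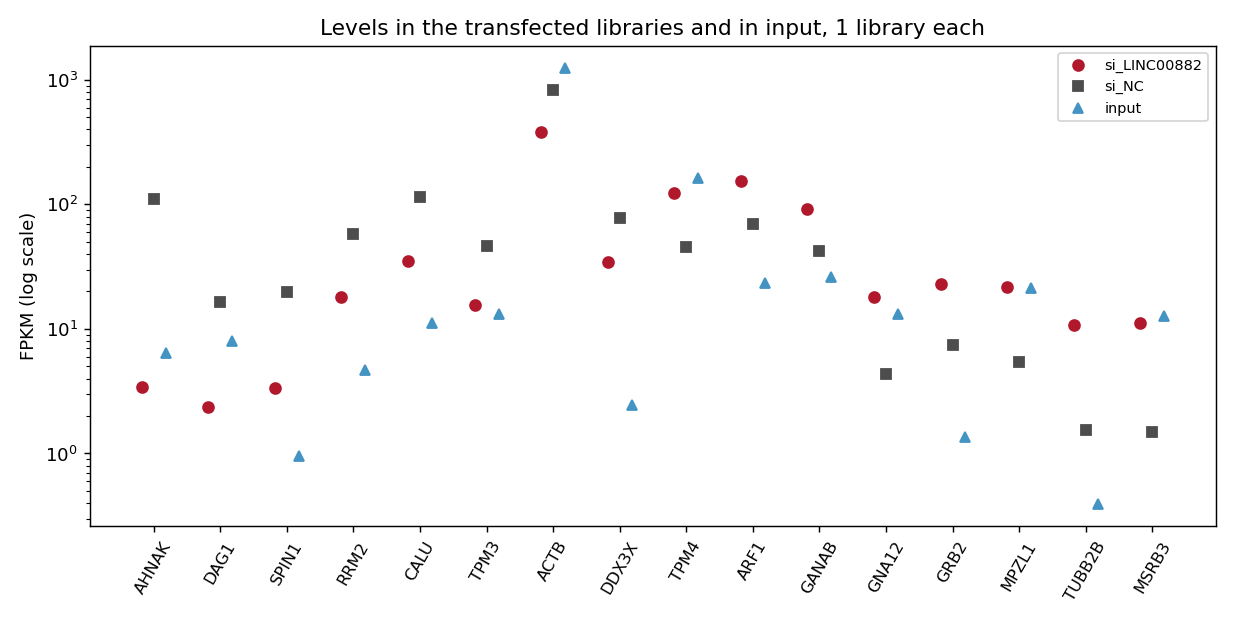
FPKM (log axis) of 16 named genes in si_LINC00882 (circles), si_NC (squares) and input (triangles), 1 library each. Input lies near si_LINC00882 for AHNAK and MSRB3, beyond si_NC for ACTB and GRB2, and below both transfected libraries for RRM2 and DDX3X.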

How the data were processed

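Gene levels are FPKM as deposited by the authors, per the file headers. StringTie 1.3.3, HISAT2 2.1.0, cutadapt 1.17, FastQC 0.11.7 and the build GRCh37 appear in the submitters' processing notes, with no role or order. Filters and annotation are not stated there. The read depth is unknown, and no interval or detection limit was computed. FPKM are not counts, so no count test was used.

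Groups came from the treatment labels. The si_LINC00882 and si_NC columns were joined on gene ID and compared as log2 ratios of FPKM plus 1, where either value reached 1 FPKM. A 2-fold size rule was used and no p-value was computed.

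Named genes had at least 5 FPKM in either library. Pseudogenes, small RNAs and genes known by a clone name were not named. They were the 20 highest and 20 lowest ratios without overlap, the 12 highest and lowest among genes of at least 50 FPKM, the 10 largest gains and losses of FPKM, list members past 2-fold or among the 4 largest ratios of a list, readthrough genes with their components, PABPC1 and the cell type markers. Not every gene the rule allows is described. Genes outside the rule, relatives shown beside a named gene among them, were chosen after their values were seen. The members, the 48 gene lists and the rules were chosen with earlier results of these data known.

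Symbols were matched to RefSeq genes of GRCh38.p14 (10972 by symbol, 492 by synonym, 231 unmatched), used for names, chromosomes, spans and overlaps. Protein length was not analysed here. The ratio and the size rule were run on simulated data, in which genes of at least 5 FPKM were changed 4-fold. The noise added there was smaller than the SD of 0.35 of the log2 ratios here. That run therefore does not show how the size rule performs on these libraries or on genes with low levels. The software was matplotlib 3.10.9, pandas 2.3.3, numpy 2.4.6 and Python 3.11.15.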

Additional observations from a re-analysis of the deposited data

How the results depend on the processing

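The counts of genes at 2-fold higher and lower in si_LINC00882 (90 and 121) moved with the control library, the size rule and the pseudocount. They were 160 and 201 with a pseudocount of 0.1, 23 and 33 with a pseudocount of 5, 323 and 390 at 1.5-fold, and 18 and 32 at 3-fold. Leaving out overlapping genes and clone names gave 57 and 81. With input in place of si_NC they were 2005 and 629, among genes whose median ratio was 0.28. Without a minimum, with a minimum of 5 FPKM, centred, rescaled without mitochondrially encoded genes, or with protein-coding genes only, they lay between 65 and 90 higher and between 85 and 121 lower. Dropping the minimum cannot add a gene, because values under 1 FPKM cannot differ 2-fold after the pseudocount of 1. Of 96 named or listed genes past 2-fold, 53 fell short of it with a pseudocount of 5 and 1 with centring or with rescaling. None changed sign in those settings, but a pseudocount added to both values cannot change a sign. Centring removed a median of -0.006 and rescaling left a median of 0.001, shifts too small to reverse a gene past 2-fold. With input as the control 24 of 88 changed sign, and the cause was not tested. Those higher over si_NC and lower over input were ARF4 (-1.09), DSTN (-0.26), EMC6 (-0.28), FMC1 (-0.75), MSRB3 (-0.17), NIP7 (-0.64), PTPN14 (-0.19), RNASEK-C17orf49 (-0.56), RTN3 (-0.85), STK4 (-0.42), TPM4 (-0.41), TUBB3 (-0.0086), YTHDF3 (-0.15). Those lower over si_NC and higher over input were CALU (1.56), CCDC93 (0.31), DDX3X (3.35), EIF5 (0.28), FBXO34 (1.37), PRKAR1A (1.68), RBM14-RBM4 (0.99), RRM2 (1.74), SLC19A2 (2.04), SPIN1 (1.16), TPM3 (0.23). Another 19 kept their sign and were under 2-fold. No paired analysis was possible because each group is 1 library, and no replicate could be left out for the same reason. The read depth is unknown, so the error of genes with low FPKM cannot be stated.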
